A study of Homo sapiens with 6 samples.

Results

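The genes described here are those of the epidermal differentiation complex with the S100A family, in U87-MG, an established human glioblastoma cell line. They were chosen by gene symbol and type, as protein-coding genes named LCE, SPRR or S100A with a number, plus FLG, IVL, CRNN and TCHH. The rule found 51 genes among the 61731 genes and loci of the TPM table, namely 19 LCE, 11 SPRR and 17 S100A genes and the 4 single genes. A further 11 genes with matching names are not protein-coding and were left out. These families were proposed with the differences between the groups already known, LCE3D being one of the largest. The differences between groups are therefore given as descriptions, and the limits of the fit across all genes serve only to sort them. The libraries were 3 of negative control (NC) U87-MG cells and 3 labelled as CHRM knockdown (KD), where the study used lentivirus carrying sequences against CHRM3, the M3 muscarinic acetylcholine receptor. The labels name neither which of its 3 knockdown sequences the KD cells carried nor whether replicates were grown as separate cultures, so the spread between libraries may be technical. The level of CHRM3 itself was 0.02, 0.09 and 0.13 TPM in NC and 0.13, 0.01 and 0.02 TPM in KD, so the groups overlapped and the group of each library rests on its label.

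The epidermal differentiation complex is a dense run of genes on chromosome 1 that are used by keratinocytes as they form the outer barrier of the skin. Late cornified envelope (LCE) proteins, small proline-rich (SPRR) proteins and involucrin (IVL) are crosslinked under the membrane of the dying cell, and filaggrin (FLG) and trichohyalin (TCHH) bind its keratin filaments. S100A proteins are small calcium-binding proteins whose genes lie at both ends of the complex, and several of them are widely expressed outside skin, where they bind annexins and cytoskeletal proteins or are released as signals.

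TPM gives a transcript's share of a library per unit of its length, so that the levels of different genes can be compared. It keeps no read depth, so sequencing depth cannot be read from it. The number of genes above 0 TPM ranged from 22597 to 23311 per library. Of the markers of a glioblastoma line, VIM (mean 6574 TPM in NC and 7376 TPM in KD) and CD44 (597.3 and 473.5 TPM) were abundant. CHI3L1 (32.5 and 43.9 TPM) and NES (2.25 and 3.58 TPM) were less so. Every KD library was above every NC library for VIM, CHI3L1 and NES, and below every NC library for CD44. Each of these differences passed an adjusted p of 0.05 in the limma fit described below. GFAP was between 0.87 and 1.46 TPM, SOX2 was at or under 0.09 TPM and OLIG2 at or under 0.56 TPM in every library.

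The sequences before the start sites of 5 members are shown because these genes stand for both directions of difference described below. LCE3D, FLG and IVL were lower in KD, and S100A3 and S100A6 were higher. Each run holds the 250 bases before the RefSeq start of the gene on GRCh38.p14, read 5′ to 3′ on the strand of the gene. Capitals mark the AP-1 motif TGANTCA and the TATA box TATAAA, searched on both strands. The windows were chr1:152580517-152580766 for LCE3D, chr1:152325240-152325489 for FLG, chr1:153549259-153549508 for S100A3 and chr1:153535992-153536241 for S100A6, all on the minus strand, and chr1:152908296-152908545 for IVL on the plus strand.
LCE3D: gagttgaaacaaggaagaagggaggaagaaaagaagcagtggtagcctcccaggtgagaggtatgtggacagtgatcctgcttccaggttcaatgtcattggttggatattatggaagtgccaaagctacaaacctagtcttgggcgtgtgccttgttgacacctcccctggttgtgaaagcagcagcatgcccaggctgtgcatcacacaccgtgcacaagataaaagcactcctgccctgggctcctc
FLG: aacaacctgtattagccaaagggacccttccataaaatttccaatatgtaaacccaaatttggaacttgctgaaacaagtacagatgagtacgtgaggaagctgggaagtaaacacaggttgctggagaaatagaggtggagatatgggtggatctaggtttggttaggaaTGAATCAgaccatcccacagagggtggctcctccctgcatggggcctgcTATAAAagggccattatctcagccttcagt
IVL: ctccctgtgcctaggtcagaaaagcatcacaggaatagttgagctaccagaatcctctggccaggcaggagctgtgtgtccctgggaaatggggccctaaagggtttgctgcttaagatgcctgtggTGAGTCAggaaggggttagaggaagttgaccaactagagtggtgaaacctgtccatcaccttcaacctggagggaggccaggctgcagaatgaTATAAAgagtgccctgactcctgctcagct
S100A3: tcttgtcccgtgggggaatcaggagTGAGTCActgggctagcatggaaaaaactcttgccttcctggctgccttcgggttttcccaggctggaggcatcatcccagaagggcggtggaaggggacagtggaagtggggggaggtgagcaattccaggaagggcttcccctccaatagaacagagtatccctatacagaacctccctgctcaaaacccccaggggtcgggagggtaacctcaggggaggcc
S100A6: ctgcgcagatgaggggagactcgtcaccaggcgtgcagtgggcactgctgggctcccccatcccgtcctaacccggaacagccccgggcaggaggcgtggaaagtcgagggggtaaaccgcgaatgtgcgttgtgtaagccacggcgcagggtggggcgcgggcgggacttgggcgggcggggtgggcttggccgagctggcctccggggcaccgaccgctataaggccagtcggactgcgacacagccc

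FLG and IVL each held both motifs, with TATAAA beginning 30 bases before the start in each. Their AP-1 motifs began 79 and 123 bases before the start, respectively. S100A3 held an AP-1 motif 225 bases before its start, and the windows of LCE3D and S100A6 held neither. RefSeq windows were found for 47 of the 51 members, and SPRR2D was among those without one. Of the 55 member windows, 14 held TGANTCA and 29 held TATAAA, against 6.57% and 10.7% of the 35116 windows of all genes. Most members with a match were under 0.1 TPM. Of the 17 members with a window and a mean of at least 0.1 TPM, 5 held TGANTCA and 5 held TATAAA. The grainyhead-like motif AACCGGTT was in none of the member windows and in 0.117% of all windows. A match of letters is a description of the window and was not taken as a binding site.

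Most of the complex was at or near 0 TPM in these cells. Of the 51 members, 28 were listed at 0 TPM in all 6 libraries, among them 13 LCE genes, 9 SPRR genes, CRNN and 5 S100A genes. A level above 0 in every library was found for 14 members, 10 of them S100A genes. The mean over the 6 libraries reached 1 TPM, the limit for testing, for 10 members, which were LCE3D and 9 S100A genes. A further 8 members lay between 0.1 and 1 TPM, and LCE1C, LCE2A, LCE3E, SPRR2A and TCHH lay above 0 and under 0.1 TPM.
In the NC libraries the S100A genes formed a steep order. S100A6 led with 5246 ± 138 TPM (SD, n = 3), ranking between 16 and 19 among all genes of an NC library. S100A11 followed with 2003 ± 8.93 TPM, S100A10 with 998.9 ± 6.72 TPM, S100A16 with 439.3 ± 2.93 TPM and S100A13 with 169.3 ± 3.26 TPM (SD, n = 3 each). The next 3 members were close together, since S100A2 (30.22 to 33.44 TPM), LCE3D (26.71 to 30.54 TPM) and S100A3 (26.01 to 29.91 TPM) overlapped with their neighbours in the order. S100A4 lay lower at 5.60 ± 0.832 TPM, and S100A1 (0.88 to 1.28 TPM) overlapped with S100A5 (0.54 to 1.45 TPM).

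**Figure D1:**
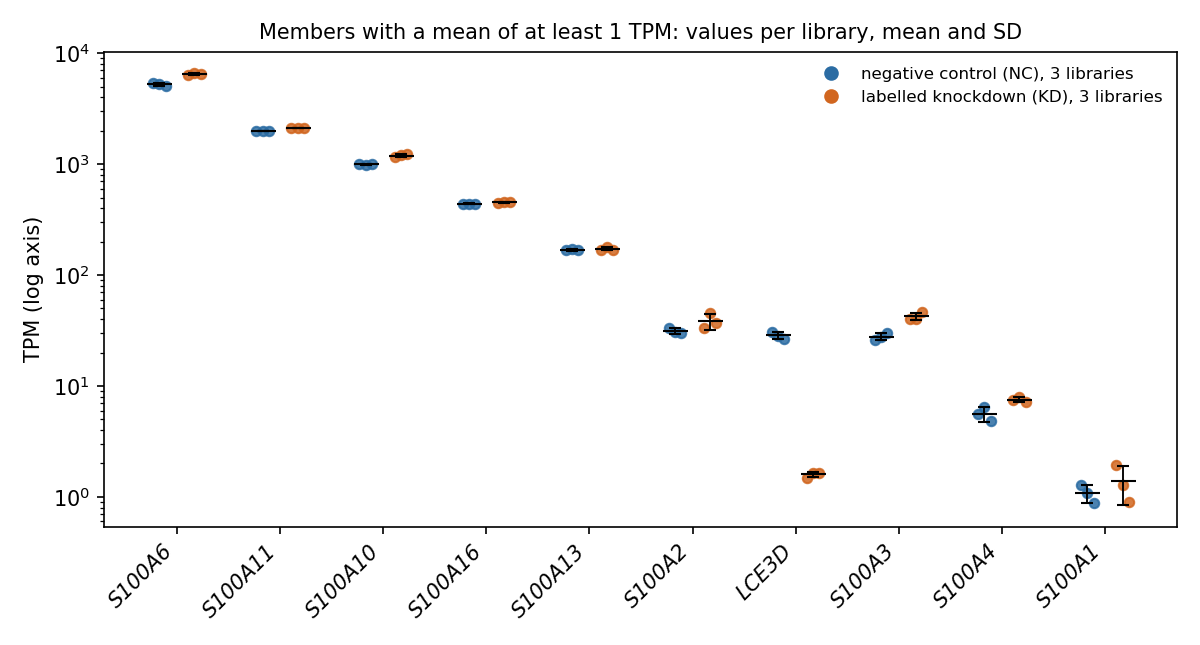
TPM on a log axis for the 10 members whose mean reached 1 TPM, with points for the 3 NC (blue) and 3 KD (orange) libraries, a black bar for the mean and whiskers for the SD. LCE3D drops from 26.71 to 30.54 TPM in NC to 1.49 to 1.65 TPM in KD, while the abundant S100A6, S100A11 and S100A10 are slightly higher in KD.

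The comparison of KD with NC asked how the transcriptome of these cells differs when CHRM3 is targeted. Among the 10 tested members, LCE3D fell and 5 S100A genes (S100A3, S100A4, S100A6, S100A10 and S100A11) rose at an adjusted p under 0.05 in the limma fit across all genes. Over all 13722 tested genes, 24.0% were lower and 12.1% were higher at that threshold. Adding a limit of 1 on the absolute log2 fold change, LCE3D was the 1 member called lower and 0 members were called higher, against 1.20% and 0.670% of all tested genes. The member counts were the same at an unadjusted p under 0.05 with that fold, for which no share of all genes was computed. The members tested had a median log2 fold change of 0.21, and all genes tested had one of -0.06. The KD values lay wholly above those of NC for 6 tested members (the 5 named and S100A16) and wholly below them for LCE3D, where 17.4% and 32.8% of all tested genes did so.

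LCE3D (ENSG00000163202), a late cornified envelope gene of group 3, lies on the minus strand of chromosome 1 (GRCh38, 152579381 to 152580504). Its level was 30.54, 28.28 and 26.71 TPM in the NC libraries and 1.49, 1.63 and 1.65 TPM in the KD libraries. All KD libraries lay far below all NC libraries, and the TPM was 17.9-fold lower. In such bulk RNA, fewer cells with the transcript and less of it per cell cannot be told apart. The log2 fold change of TPM + 1 was -3.51 (standard error 0.0683). In rank, the gene moved from between 4050 and 4462 in NC to between 12429 and 12651 in KD. No stretch of 75 bases of its transcript recurred exactly in a transcript of another gene, so the neighbouring LCE3 genes share no such stretch with it.
The rest of the LCE family was close to 0. LCE3A was listed at 1.70 TPM in NC replicate 2 and at 0 in the other 5 libraries. LCE1F was 0.09, 0.19 and 0.46 TPM in NC and 0, 0.10 and 0.10 TPM in KD, with overlapping groups. Summed over the 19 genes, the LCE family held 29.5 ± 1.75 TPM in NC and 1.78 ± 0.167 TPM in KD (SD, n = 3 each). LCE3D made up 96.8% of that sum in NC and 89.3% in KD, so the family sum is in effect the level of this 1 gene.

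Of the SPRR genes, whose products are crosslinked into the envelope as bridging proteins, only SPRR2D and SPRR2A were above 0 TPM in any library. SPRR2D was 0.99, 0.86 and 0.64 TPM in NC and 0.12, 0.11 and 0.11 TPM in KD. The groups did not overlap, and the mean was 7.32-fold lower in KD. SPRR2A was listed at 0.11 TPM in NC replicate 2 and at 0 elsewhere.
FLG, the filament-aggregating protein of the upper epidermis, was 0.31, 0.28 and 0.37 TPM in NC and 0.10, 0.13 and 0.06 TPM in KD, a mean 3.31-fold lower with no overlap. The antisense gene FLG-AS1, named after its values were seen, spans FLG on the opposite strand (chromosome 1, 152168125 to 152445456) and was 2.48, 2.88 and 2.29 TPM in NC and 0.83, 1.16 and 0.74 TPM in KD. The strand setting of the authors' counting is not given in the sources used here, and 5.5% of the bases of the longest FLG transcript match this gene exactly, so reads of the pair may not be separable. IVL, the early scaffold protein of the envelope, was 0.16, 0.17 and 0.23 TPM in NC and 0.08, 0.03 and 0.08 TPM in KD, again without overlap and with a mean 2.95-fold lower. TCHH was at or under 0.04 TPM in every library, and CRNN was listed at 0 throughout.
None of these genes reached the limit for testing. In the limma fit without that limit, SPRR2D and FLG passed an adjusted p of 0.05 and IVL did not, and with a limit of 0.1 TPM only SPRR2D did among these 3 genes.

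**Figure D2:**
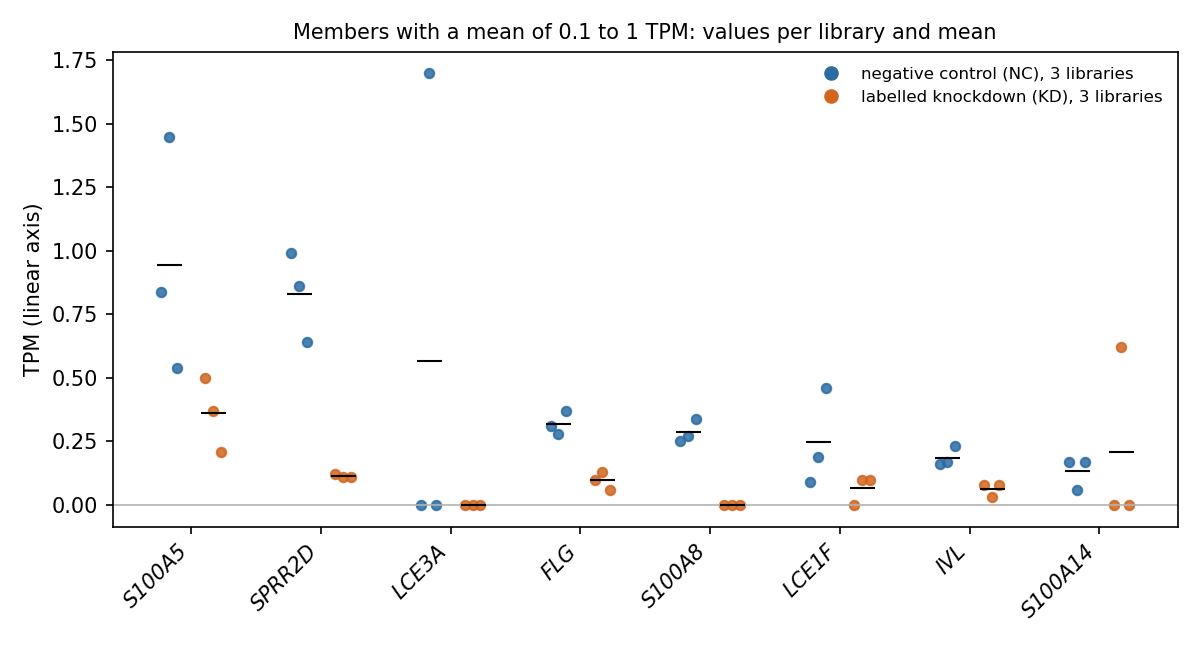
TPM on a linear axis for the 8 members with a mean of 0.1 to 1 TPM, with points for the 3 NC (blue) and 3 KD (orange) libraries and a black bar for the mean. SPRR2D, FLG, IVL, S100A8 and S100A5 show no overlap. LCE3A rests on a single NC library (1.70 TPM), and the KD mean of S100A14 rests on a single KD library (0.62 TPM).

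Of the 8 members between 0.1 and 1 TPM, 5 had KD values wholly below those of NC and 0 had them wholly above. Among all 6478 genes in that range, 8.63% were wholly below and 7.24% wholly above. The members were proposed from this same contrast, so nothing is read from that difference.

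The S100A family, taken as a sum, went the other way, although not every member did. Its summed level was 9054, 8959 and 8758 TPM in NC and 10364, 10646 and 10651 TPM in KD, which corresponds to 0.892% and 1.06% of all transcripts. S100A6 made up 58.8% of the sum in NC and 61.7% in KD. Without S100A6 the ratio of KD to NC was 1.10, against 1.18 with it.
S100A6 (calcyclin, ENSG00000197956), a calcium sensor of proliferating cells, was 5365, 5278 and 5095 TPM in NC and 6379, 6591 and 6575 TPM in KD. Every KD library lay above every NC library (log2 fold change 0.31, standard error 0.0227), and the mean was 24.2% higher. The antisense genes that overlap S100A6 and S100A11 on the opposite strand had means of 0.83 and 0.017 TPM over the 6 libraries.
S100A10, the light chain that binds annexin A2, was 1005, 991.7 and 999.9 TPM in NC and 1161, 1202 and 1225 TPM in KD (log2 fold change 0.26, standard error 0.0218). Its partner ANXA2, named after its values were seen, was 2461, 2455 and 2447 TPM in NC and 2902, 2893 and 2917 TPM in KD, so that the means of the pair were 19.7% and 18.3% higher. S100A11, which binds annexin A1, was 2009, 2007 and 1993 TPM in NC and 2127, 2125 and 2133 TPM in KD. That difference was small (log2 fold change 0.09, standard error 0.0107), and it did not pass in a fit without the mean-variance trend. ANXA1 was 1403 ± 17.3 TPM in NC and 1424 ± 18.6 TPM in KD, with overlapping groups, and it passed as higher after median-of-ratios scaling.

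S100A3, a cysteine-rich member known from the hair cuticle, had the largest fold among the S100A genes that rose. Its values were 26.01, 27.48 and 29.91 TPM in NC and 40.46, 40.55 and 46.47 TPM in KD (log2 fold change 0.59, standard error 0.0732). S100A4, which binds non-muscle myosin and is known from motile and metastatic cells, was 5.53, 6.47 and 4.81 TPM in NC and 7.52, 7.88 and 7.16 TPM in KD. Its groups did not overlap, and the log2 fold change was 0.37 (standard error 0.102). The S100A3 gene lies within the span of S100A4 on the same strand. No stretch of 75 bases of the longest transcript of either recurred exactly in a transcript of another gene. The rise of S100A4 no longer passed without NC replicate 1 (0.37), NC replicate 3 (0.29), KD replicate 1 (0.37), KD replicate 2 (0.34) or KD replicate 3 (0.41), or with no limit on low values (0.37).
The remaining tested members did not pass. S100A16 was 439.9, 441.9 and 436.1 TPM in NC and 446.4, 454.0 and 456.2 TPM in KD, 2.93% apart in the mean. S100A13, which takes part in the non-classical export of growth factors, was 167.4, 173.1 and 167.5 TPM in NC and 168.0, 178.5 and 170.1 TPM in KD, with a 95% interval of the log2 fold change from -0.05 to 0.10. Its fold changed sign without KD replicate 2 (-0.0024). S100A2, a nuclear member known from epithelia, was 33.44, 30.39 and 30.22 TPM in NC and 33.04, 45.40 and 36.85 TPM in KD, and it passed without KD replicate 1 (0.37). S100A1 was 1.28, 1.09 and 0.88 TPM in NC and 1.95, 1.28 and 0.90 TPM in KD, with a 95% interval from -0.30 to 0.64. S100A1 and S100A13 overlap on opposite strands, and 34.2% of the bases of the longest S100A13 transcript match another gene exactly, so their split is uncertain.
Scaling mattered for the small differences. After median-of-ratios scaling S100A13 and S100A16 also passed as higher (log2 fold changes of 0.09 and 0.11), and after quantile normalization S100A2 and S100A16 did (0.36 and 0.09). The 5 genes that rose remained past the threshold under both scalings.

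Within the S100A family 2 lowly expressed genes were lower in KD. S100A8, a subunit of calprotectin that is abundant in neutrophils and stressed keratinocytes, was 0.25, 0.27 and 0.34 TPM in NC and was listed at 0 in all 3 KD libraries. Its partner S100A9 was listed at 0 in all 6 libraries. S100A5, which neighbours S100A6, was 0.84, 1.45 and 0.54 TPM in NC and 0.50, 0.37 and 0.21 TPM in KD, close at the edge of each group. S100A8 passed in the limma fits with no limit and with a limit of 0.1 TPM, and S100A5 passed in neither. S100A14 was above 0 TPM in KD replicate 2 alone among the KD libraries (0.62 TPM), so that its mean TPM was higher in KD while its mean log2(TPM + 0.1) was lower. S100A7, S100A7A, S100A7L2 and S100A12 were listed at 0 throughout.

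The members were chosen by symbol, but their families lie together in this complex, so nearness was built into the choice. Within the complex, the differences fell into blocks along the chromosome. From S100A10 to S100A1 (chromosome 1, 151982915 to 153632039) the annotation has 64 protein-coding genes over 1.65 Mb, of which 20 had a mean of at least 0.1 TPM. The middle stretch, from TCHHL1 to PGLYRP4, holds 47 of them, including the FLG, LCE, IVL and SPRR genes. Only 8 of these 47 reached 0.1 TPM, and all 8 had a lower mean in KD, 6 of them (HRNR, FLG, LCE3D, IVL, SPRR2D and PRR9) without overlap. That limit applies to the mean of all 6 libraries. FLG, IVL, LCE1F and LCE3A reached it through NC alone, with KD means of 0.097, 0.063, 0.067 and 0 TPM. For these genes, and for S100A8 at the far end, a lower mean in KD was thus built into the limit. At the far end, from S100A9 to S100A1, 10 of 15 genes reached 0.1 TPM. Of these, 8 had a higher mean in KD, S100A14 through a single KD library. Without overlap, 4 were higher, while S100A8 and S100A5 were lower. S100A10 and S100A11, at the near end, were both higher. Over all 20199 genes whose mean reached 0.1 TPM, 25.1% were lower and 14.1% higher without overlap. The share of all genes with a lower or higher mean alone was not computed. Neighbouring genes are not independent, and the blocks were seen in the same contrast that led to the choice of these families, so they are given as a description.

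**Figure D3:**
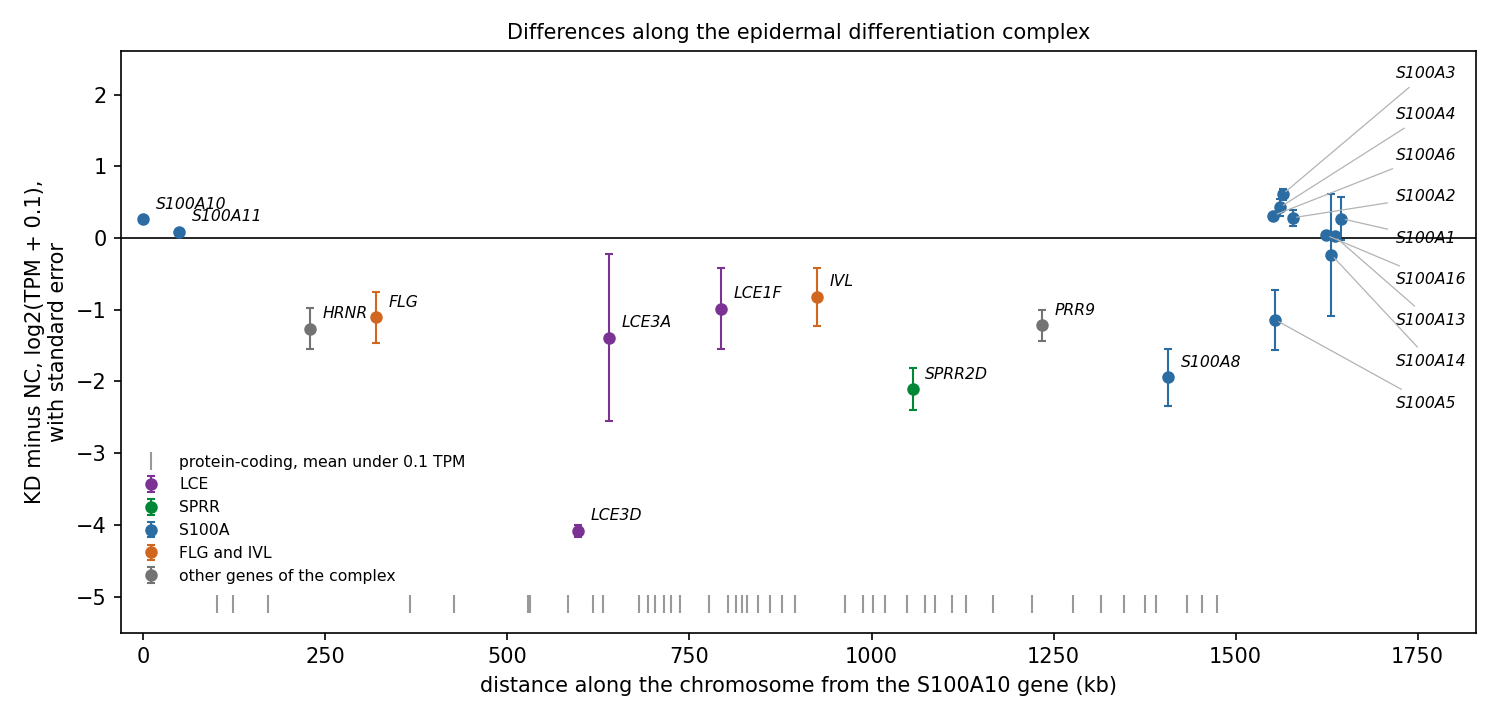
Difference between KD and NC in log2(TPM + 0.1), with its standard error, for the 20 protein-coding genes whose mean reached 0.1 TPM, against distance in kb from S100A10. Ticks near the lower edge mark genes under 0.1 TPM, and the values of LCE3A and S100A8, listed at 0 in all KD libraries, depend on the added 0.1. Points of the middle stretch lie below 0, and those of the S100A genes at both ends lie mostly above it. FLG, IVL, LCE1F, LCE3A and S100A8 reached 0.1 TPM through NC alone.

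Other genes of the complex and of envelope formation were examined through lists grouped by function. These lists were chosen with earlier results of these data known. Of 13 further genes of the complex, 7 were listed at 0 in all libraries and 1, PRR9, was tested. PRR9, a proline-rich protein gene of the complex, was 1.82, 1.34 and 1.69 TPM in NC and 0.78, 0.59 and 0.55 TPM in KD and fell (log2 fold change -0.67, standard error 0.144). HRNR, encoding the filaggrin-like hornerin, was 0.49, 0.59 and 0.63 TPM in NC and 0.21, 0.14 and 0.19 TPM in KD, below the limit for testing and also inside the span of FLG-AS1. KPRP, a keratinocyte proline-rich protein gene, was 0.16, 0.19 and 0.15 TPM in NC and 0, 0.04 and 0.02 TPM in KD. HRNR and KPRP passed as lower in the fit with no limit on low values.
Of 17 genes of cornified envelope assembly, 3 were tested, 2 were called lower and 0 higher, against 1.20% and 0.670% of all tested genes. Because the list was chosen with earlier results known, nothing is read from that difference. CSTA, encoding the protease inhibitor cystatin A, was 8.26, 9.84 and 7.72 TPM in NC and 1.13, 1.24 and 1.17 TPM in KD (log2 fold change -2.13, standard error 0.103). PI3, encoding elafin, an elastase inhibitor that is crosslinked into the envelope, was 7.62, 7.04 and 5.60 TPM in NC and 0, 0.62 and 0.16 TPM in KD (log2 fold change -2.64, standard error 0.207). The third was TGM2, a widely expressed transglutaminase, at 23.9 ± 0.319 TPM in NC and 22.8 ± 1.18 TPM in KD with overlapping groups. Of the 14 genes under 1 TPM, ALOXE3, a lipoxygenase of the skin barrier, was wholly lower in KD (0.91 to 1.81 against 0.53 to 0.81 TPM) but did not pass with no limit. TGM1, the crosslinking enzyme of keratinocytes, was between 0.22 and 0.73 TPM, and TGM5, CASP14, KLK5 and KLK7 were listed at 0 in every library.

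Known regulators of the complex were mostly low. Of 16 such genes, 7 were tested, of which 1 was lower and 2 were higher at an adjusted p under 0.05, where 24.0% of all tested genes were lower and 12.1% higher. PRDM1, a repressor that acts in terminal differentiation, was 5.57, 4.63 and 5.62 TPM in NC and 2.65, 3.59 and 3.29 TPM in KD and fell (log2 fold change -0.59, standard error 0.118). KLF4, a barrier transcription factor, and NFE2L2, the oxidative stress factor, are named after their values were seen. KLF4 rose from 3.15, 2.22 and 2.26 TPM in NC to 4.33, 3.80 and 3.86 TPM in KD (log2 fold change 0.50). Its rise did not pass with no limit on low values (0.50), nor without NC replicate 2 (0.44), NC replicate 3 (0.45), KD replicate 1 (0.46), KD replicate 2 (0.53) or KD replicate 3 (0.52). NFE2L2 rose from 43.7 ± 1.39 to 52.7 ± 1.62 TPM (SD, n = 3 each). Of the 9 regulators under 1 TPM, HOPX and ZNF750 had KD values wholly above those of NC. Among all 6478 genes with a mean of 0.1 to 1 TPM, 7.24% were wholly above. That range holds HOPX but not ZNF750, whose mean was 0.025 TPM. HOPX, a homeodomain-only protein of differentiating epidermis, was 0.10, 0.46 and 0.22 TPM in NC and 1.29, 1.45 and 0.82 TPM in KD, a mean 4.56-fold higher, and it passed as higher in the fits with no limit and with a pseudocount and limit of 0.1 TPM. ZNF750 was listed at 0 in NC and was at or under 0.08 TPM in KD. TP63 was at or under 0.14 TPM, and OVOL1 and CEBPA were listed at 0 in all libraries.
Among 12 partners and receptors of S100 proteins, 10 were tested, 2 were lower (BSG and CACYBP) and 3 were higher (AGER, ANXA2 and ANXA6) at the same threshold, against those 24.0% and 12.1% of all tested genes. AGER, the receptor for advanced glycation end products that binds several S100 proteins, was 0.97, 1.16 and 1.14 TPM in NC and 2.49, 1.72 and 2.62 TPM in KD, with a log2 fold change of 0.64. Its rise did not pass without NC replicate 1 (0.60), KD replicate 1 (0.59) or KD replicate 3 (0.56), or with no limit on low values. BSG, a further S100 receptor named after its values were seen, was 980.9 ± 4.37 TPM in NC and fell to 746.6 ± 12.9 TPM in KD (SD, n = 3 each). CACYBP, the calcyclin-binding protein, was 300.8 ± 24.2 TPM in NC and 238.2 ± 17.3 TPM in KD. CD36, a scavenger receptor under 1 TPM, was 0.03, 0.01 and 0.15 TPM in NC and 0.18, 0.41 and 0.18 TPM in KD and did not pass with no limit. Of the S100 genes outside the S100A names, S100Z was the 1 tested, at 1.24 ± 0.0551 TPM in NC and 2.26 ± 0.105 TPM in KD, and S100B, a glial marker, was between 0.11 and 0.42 TPM.

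**Figure D4:**
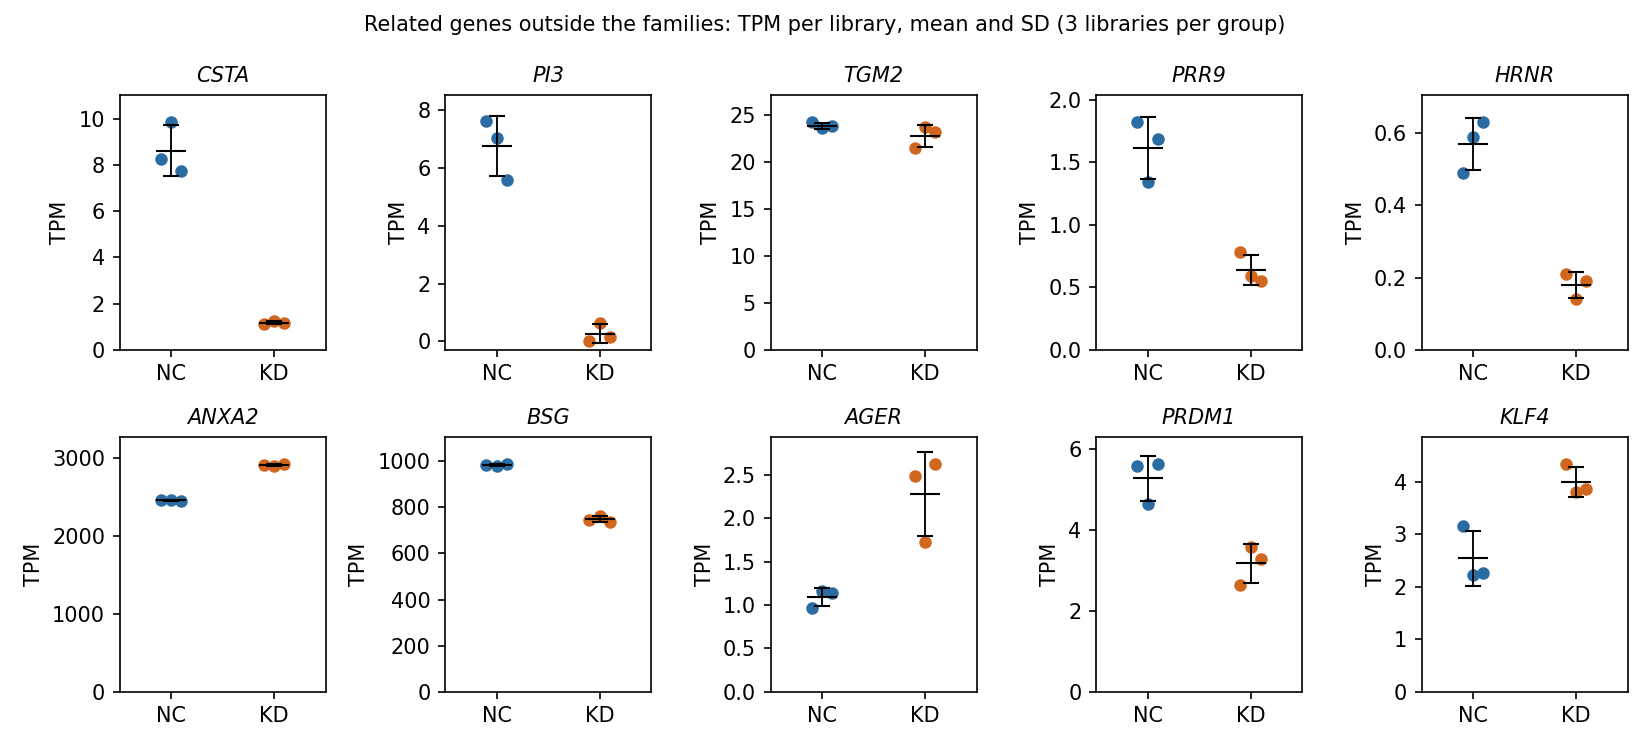
TPM on linear axes for 10 related genes outside the families, with points for the 3 NC (blue) and 3 KD (orange) libraries, a black bar for the mean and whiskers for the SD. CSTA and PI3 drop to between 0 and 1.24 TPM in KD, TGM2 overlaps between groups, and ANXA2, AGER and KLF4 are higher in KD.

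Markers of cells that commonly express these families were examined beside these results. Of 13 keratinocyte markers, 10 were under 1 TPM, and KRT5 and KRT14 were at or under 0.10 TPM in every library. Their summed level was 13.63 to 15.93 TPM in NC and 13.94 to 17.72 TPM in KD, most of it KRT10, and none of the 3 tested (KRT10, COL17A1 and EPCAM) passed, although COL17A1 passed as lower (-0.18) in a fit without the mean-variance trend. SFN was 0.41, 0.53 and 0.46 TPM in NC and 0.10, 0.27 and 0.23 TPM in KD. KRT1 was 0.04, 0.02 and 0.02 TPM in NC and was listed at 0 in KD. CDH1 was listed at 0 in NC and was 0.11, 0.07 and 0.02 TPM in KD. The levels of KRT1 and CDH1 were near the floor, and none of these 3 genes passed with no limit. Of 9 myeloid markers, 8 were under 1 TPM and MPO, TYROBP and FCGR3A were listed at 0 throughout. Their sum was 5.77 to 5.97 TPM in NC and 9.31 to 9.75 TPM in KD, nearly all of it CSF1R, which rose from 5.44 ± 0.168 to 9.17 ± 0.0351 TPM (SD, n = 3 each) while S100A8 was listed at 0 in KD. The part of such cells in the differences was not tested.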

How the data were processed

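RNA from 3 negative control (NC) and 3 CHRM knockdown (KD) libraries of U87-MG cells was sequenced (paired-end). Deposited values are TPM computed by the authors, rounded to 2 decimals. The submitters' processing notes name fastp, RSEM and GRCh38.p13. The annotation, filters and strand setting are not given in the sources used here. SMARTer and RNeasy kits are named in the labels, but TruSeq and TRIzol in the paper. All 6 columns were assigned by title.

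Of 61541 Ensembl identifiers, 61369 had a symbol and 58366 were in GENCODE 29, which gave gene types and coordinates (GRCh38). TPM keeps no depth, so counting error is unknown. Values were analysed as log2(TPM + 1), which understates the folds of low genes, with limma 3.58.1 (lmFit, eBayes with trend, group as the only term) in R 4.3.3. Testing was limited to the 13722 genes whose mean reached 1 TPM, with Benjamini-Hochberg adjustment. A gene was called where its adjusted p was below 0.05 and its log2 fold change reached 1 in either direction. The code was tested on simulated data. Exact matches of 75 bases were searched with blastn 2.17.0 in GENCODE 29 transcripts.

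The members and lists were chosen with earlier results of these data known. Named genes were all members whose mean reached 0.1 TPM, up to 4 genes of each list past an adjusted p of 0.05 and 0.58 in absolute log2 fold change, and markers at or over 1 TPM. Other list genes were named after their values were seen. Alternatives varied the pseudocount, limit, scaling, trend, replicate block and libraries.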

Additional observations from a re-analysis of the deposited data

How the results depend on the processing

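LCE3D was called lower in every alternative, alone in all but 1 of them, and 0 members were called higher in any. Setting both the pseudocount and the limit to 0.1 TPM, which was chosen after seeing the data, gave 3 members called lower (LCE3D, SPRR2D and S100A8, whose fold depends on the pseudocount because KD is at 0). At an adjusted p under 0.05 alone, 1 member was lower, against 4 when no gene was filtered out, 3 when the limit was 0.1 TPM and 3 under the added setting, since more members are tested there. The number higher was 5, and it was 4 to 7 over the alternatives and 4 to 5 with 1 replicate left out. The shares of all genes under these alternatives were not computed, so nothing is read from the changes in these counts. The limit for testing was reached by 10 members, and by 18 with a limit of 0.1 TPM. Above 0 TPM in all libraries were 14 members, and in any library 23. The KD to NC ratio of summed TPM was 0.0604 for LCE genes (0.0574 to 0.0630 with 1 replicate left out) and 0.199 without LCE3D, where 1 NC library holds most of the sum. It was 0.131 for SPRR genes (0.116 to 0.141), with no value without SPRR2D because little TPM remained. For S100A genes it was 1.18 (1.17 to 1.19), 1.24 after median-of-ratios scaling, which moved the median log2 fold change of all genes from -0.06 to 0.00, and 1.10 without S100A6. Replicate numbers did not pair the libraries, as same-numbered libraries had correlations of deviations of -0.0198, 0.0341 and 0.0334 and not every library correlated best with its own number. With a replicate block, 1 member was lower and 5 were higher, as without it. The log2 fold change of S100A13 (0.02) was -0.0024 to 0.041 with 1 replicate left out and reversed without KD replicate 2; the cause was not tested. Of list genes that did not pass, GFAP (-0.02) reversed after median-of-ratios scaling (0.015) and quantile normalization (0.046), TGM2 (-0.07) likewise (0.0016 and 0.015), and with 1 replicate left out GFAP was -0.13 to 0.068 and KRT10 -0.065 to 0.15. NES was not past the threshold with no limit, nor VIM after quantile normalization. TPM keeps no depth, so what depth limits is unknown, and levels near 0.01 TPM have little precision.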
